A study of Mus musculus with 84 samples.

Results

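The low-complexity neurons are single airway-projecting vagal sensory neurons of the mouse whose libraries were deeply read but held few genes. A neuron was taken into the set when its total reached 5000000 counts and fewer than 5000 genes lay at 10 CPM or more, a CPM being the gene's count per 1e6 counts of that neuron. The rule found 34 of 84 neurons. Another 38 neurons passed the depth limit with 5000 genes or more, called the other neurons below, and 12 neurons had under 5000000 counts and are left out of the shares of neurons given below. All 84 are cells of C57BL/6 mice whose airways received the lipophilic tracer DiI at 2%, which travels back along the axon to the cell body. Each was collected by itself, its mRNA was amplified, and no treatment or genotype parts them: the labels give 1 group. No label names an animal, its age or its sex, so neurons were not treated as replicates and no test was made between them.

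The vagal ganglia join the nodose ganglion, derived from placodes, and the jugular ganglion, derived from the neural crest. Their airway neurons include C fibres, which respond to irritants, heat, acid and ATP, and faster fibres that follow lung inflation. Trpv1 encodes the channel opened by capsaicin and heat. P2rx2 encodes a subunit of ATP-gated channels and is known from nodose neurons. Tac1 encodes substance P and related peptides, Ntrk2 the receptor TrkB, which binds the neurotrophin BDNF, and Piezo2 a channel opened by membrane stretch. Combinations of these genes are commonly used to sort vagal afferents into types. In a library that lost most transcripts, a gene that is not found can be a gene that was missed.

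Total counts and genes at 10 CPM chose the members and are given as a description. Totals lay between 6732279 and 15677023 counts in the members, and between 7667941 and 20668832 in the other neurons. The members held 841 to 4870 genes at 10 CPM, with a median of 3076.5. The other neurons held 5231 to 8870, with a median of 7894.5. The members nearest to the limit had 4870, 4722 and 4500 genes, and the other neurons nearest to it had 5231, 5826 and 5885. The gap across the limit was therefore small beside the range within the members, as the plot of depth and genes detected shows. A threshold of 10 CPM stood for 67.3 counts in the shallowest member and 157 counts in the deepest.

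**Figure D1:**
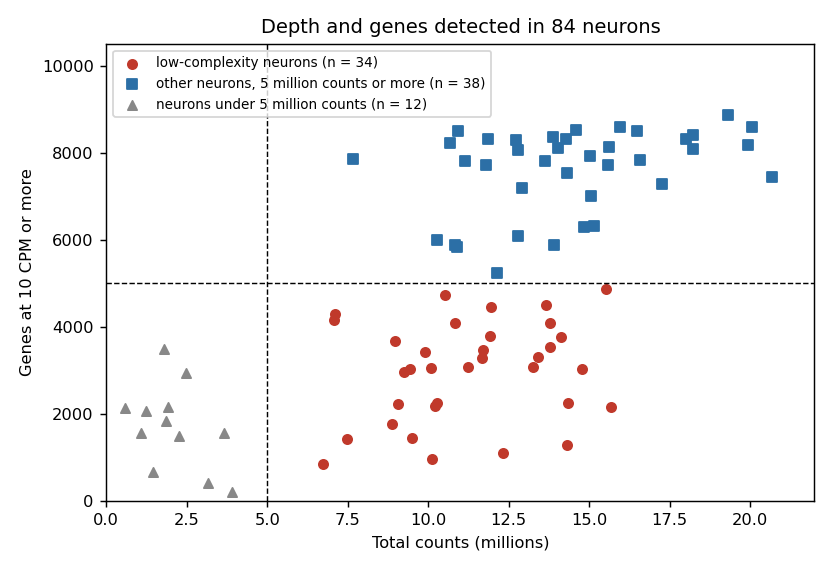
Total counts (x axis, counts divided by 1e6) against genes at 10 CPM or more (y axis) for each of the 84 neurons, 1 point per neuron; dashed lines mark 5000000 counts and 5000 genes. The 34 low-complexity neurons lie at the lower right, between 841 and 4870 genes.

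Few genes carried most of the counts in the members. The 10 most counted genes took 6.38% to 37.2% of a member's counts, and 17 to 414 genes (median 240.5) held 50% of them. Protein-coding genes took a median of 94.6% of counts, and mitochondrial genes took 0.0740% to 15.4%. The median mitochondrial share was 2.29% in the members and 1.86% in the other neurons. By blocks of neuron numbers in the labels, parted by gaps of more than 30, the members were 5 of 16, 7 of 11 and 22 of 45 neurons that passed the depth limit.

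Most members carried the transcripts of neurons. The members had 5 to 11 of 12 pan-neuronal genes at 10 CPM, with a median of 10. The summed level of these 12 genes had a median of 18397 CPM in the members and 18342 CPM in the other neurons. Snap25, which drives vesicle fusion, Stmn2, which regulates axonal microtubules, and Map1b, a microtubule-binding protein, were found in all 34 members (100%, exact 95% interval 89.7% to 100%). The intervals of shares cover counting error only. Some neuronal genes were found in fewer members: Thy1 in 30, Rbfox3, the antigen of NeuN, in 18, Syt1, a synaptic calcium sensor, in 16 and Nsg1 in 7. The other neurons had Thy1 and Syt1 in all 38, Rbfox3 in 36 and Nsg1 in 17.

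The libraries AM244, AM287 and AM298, named as in the labels, stood apart on these genes. Their summed pan-neuronal levels were 1145, 3163 and 2477 CPM. The next lowest member, AM078, had 5565 CPM, and the lowest of the other neurons had 10075 CPM. AM244 held 35386 CPM of the 7 satellite glia genes, among them Apoe at 18314 CPM and Fabp7 at 7494 CPM. AM287 held 56618 CPM of these genes, with Apoe at 33719 CPM and Fabp7 at 22893 CPM. In AM287, 2715 of the 3163 CPM belonged to the ubiquitin hydrolase gene Uchl1. AM298 had only 86.6 CPM of satellite glia genes. Among the 31 remaining members the highest satellite glia sum was 13852 CPM, in AM004.

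Low levels in AM298 and AM287 followed those of another member, AM075. AM075 had 516 genes at 500 CPM or more, and every one was counted in both libraries. These genes stood at a median of 4.72% of the AM075 level in AM298 (quartiles 3.72% and 6.98%) and at 2.18% in AM287 (quartiles 1.52% and 3.21%). The interquartile range of the log2 ratio was 0.91 for AM298 and 1.08 for AM287. Over all 1122 ordered pairs of members the median of that range was 7.26, and the next lowest pair had 2.15. The plot of levels against AM075 shows a narrow band well below equality in both libraries, with other genes far above the band.

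**Figure D2:**
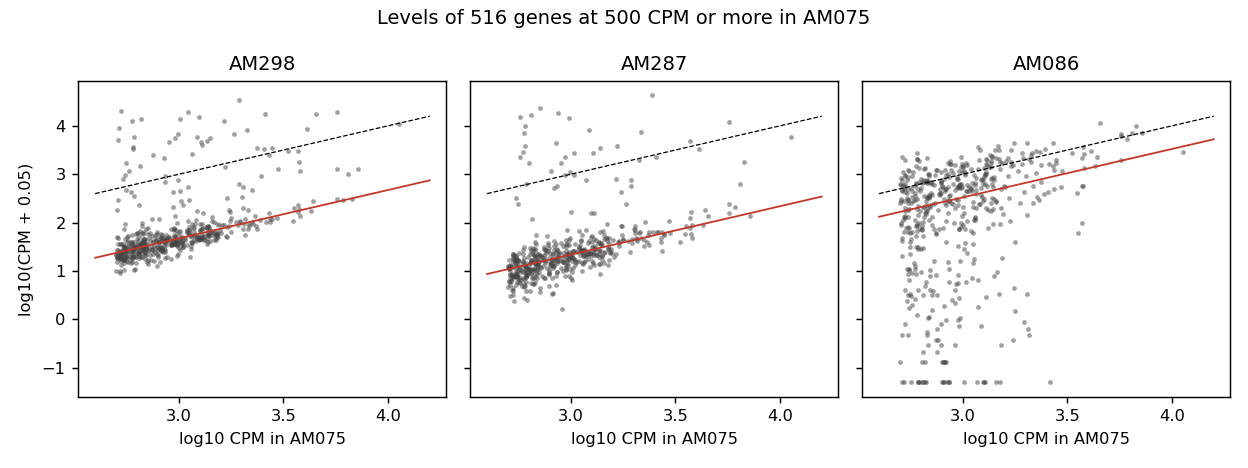
Level of each gene at 500 CPM or more in AM075 (x axis, log10 CPM) against its level in AM298, AM287 and, as an example of another member, AM086 (y axis, log10 of CPM plus 0.05); 1 point per gene, 516 genes. Dashed lines mark equal levels and red lines the median ratio; the band at 4.72% in AM298 and 2.18% in AM287 has no counterpart in AM086.

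Several subtype genes of these libraries stood at a few percent of the AM075 level. Tac1, Ntrk2 and Piezo2 were at 34.8, 15.1 and 17.2 CPM in AM298 and at 980.1, 487 and 453 CPM in AM075, so AM298 had 3.55%, 3.10% and 3.81% of the AM075 levels. In AM287 Tac1, Piezo2 and Ntrk2 were at 33.7, 6.39 and 3.86 CPM, which are 3.44%, 1.41% and 0.793% of the AM075 levels. Of these 6 ratios, that of Piezo2 in AM298 lay within the quartiles given above. Other genes stood far above the band: AM298 had 1369 CPM of the sodium channel gene Scn3a and 933 CPM of the serotonin receptor subunit gene Htr3b, at 0.283 and 0 CPM in AM075. AM287 had 28009.5 CPM of the oncostatin M receptor gene Osmr, which was at 0.496 CPM in AM075 and was picked after its values were seen. The cause of the shared band was not tested. Counts below are therefore given for all 34 members and, for some genes, also for the remaining 31. Counts given for 34 members only can change too. Without the 3 libraries Bdnf fell from 20 to 18 members, Ret from 24 to 22 and P2ry1 from 16 to 14. Prrxl1 fell from 8 to 7, while Cckar stayed at 12 and Nts at 9.

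Few genes were found in every member. Of 13139 genes found in at least 1 member, 53 were found in all 34, and 94 were found in all of the remaining 31. The other neurons shared 1887 of the 14681 genes found in at least 1 of them. Only 1883 genes (14.3%) were found in 50% or more of the members, and 2988 (22.7%) in exactly 1 member. CPM is not scaled to gene length here, so the order of genes below is an order of counts. How reads shared by near-identical copies, as among tubulin, actin and calmodulin genes, were assigned is not given, so the split between such copies is uncertain.

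Tuba1a, an alpha tubulin of growing neurons, had the highest median, 16351 CPM in the members and 11625 CPM in the other neurons. Tmsb4x, which binds free actin, had medians of 8172 and 5577 CPM, and Chchd2, a mitochondrial protein gene, 6255 and 3230 CPM. Stmn2 had medians of 5999.7 and 5022 CPM and Ywhag, a 14-3-3 adaptor, 5209 and 5036 CPM, again in members and other neurons. The large mitochondrial ribosomal RNA mt-Rnr2 had a median of 7767 CPM in the members and 5413 CPM in the other neurons. Fth1 (ferritin heavy chain), Calm2 (calmodulin), Map1b, Nefl (neurofilament light chain), Slc25a4 (mitochondrial ADP/ATP carrier), Hsp90ab1 (a chaperone), Tubb5 (a beta tubulin) and Fstl1 (a secreted glycoprotein) filled the ranks behind these, at medians from 4031 to 2905 CPM in the members. Their medians in the other neurons lay between 2568 and 6214 CPM.

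One gene of this rank departed from that likeness. The predicted gene Gm10800 had a median of 4208 CPM in the members, with a range from 22.1 to 32603 CPM, against a median of 126 CPM in the other neurons. It was found in 34 of 34 members and 37 of 38 other neurons. Among genes with the highest lowest value were also Actb, the cytoskeletal actin, and Hsp90aa1, a chaperone: no member had less than 247 CPM of Actb or less than 139 CPM of Hsp90aa1. Of 12 housekeeping genes, 11 were found in 26 or more members. The exception was Gapdh, at most 1.54 CPM in any member and found in 0 of 34 members and 0 of 38 other neurons. Under the threshold, 32 members had a count of Gapdh. For 0 of 34 the exact 95% interval reaches 10.3%, and 3 members of 34 would make 8.82%. The interval does not cover how reads were assigned to the gene, and the cause of the low Gapdh level in both sets was not tested.

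Within the members, the share with a gene was larger for genes of higher level in the other neurons. Genes were grouped by their median level in the 38 other neurons, and the share of members with each gene was taken. Genes at 1 to 3 CPM were found in a median of 2.94% of members, and genes at 10 to 30 CPM in 14.7%. The median share was 29.4% for genes at 30 to 100 CPM, 55.9% at 100 to 300 CPM, 82.4% at 300 to 1000 CPM and 97.1% at 1000 CPM or more. The same groups were found in 10.5%, 68.4%, 92.1%, 100%, 100% and 100% of the other neurons. The groups were formed on these 38 neurons and the members were chosen for few genes at 10 CPM, so the gap between both sets is a description and follows in part from these choices.

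**Figure D3:**
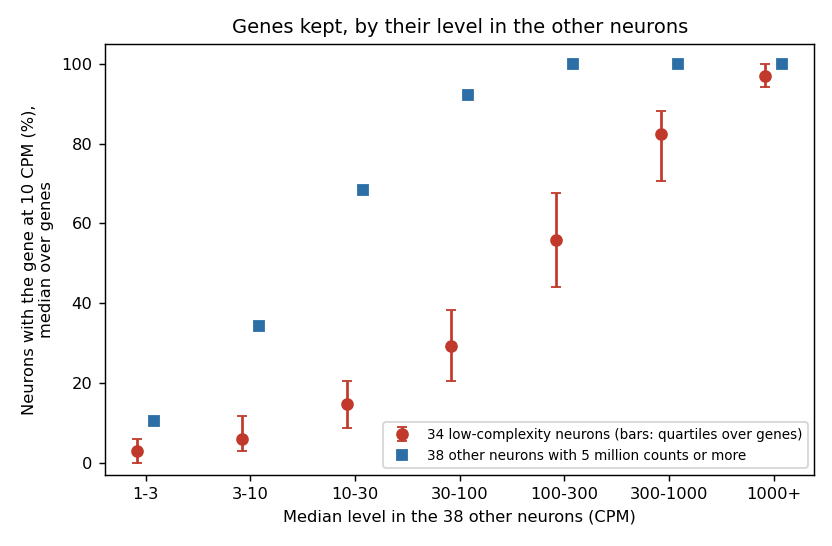
Share of neurons with a gene at 10 CPM or more (y axis, %, median over genes, bars are quartiles over genes) by the gene's median level in the 38 other neurons (x axis, CPM), for the 34 low-complexity neurons (circles) and the 38 other neurons (squares). The members' median share climbs across the groups to 97.1% at 1000 CPM or more, and stays at 55.9% at 100 to 300 CPM, where the other neurons reach 100%.

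Of the genes outside the lists that were found in 20 to 60% of the members, the 15 with the highest median level where found are given, so their high levels follow from the choice. Cd44, a cell adhesion receptor, was at 106 CPM or more in 17 members and at most 6.95 CPM in the other 17. Its median where found was 679 CPM in the members and 225 CPM in 26 other neurons. Smc6, which acts in DNA repair, was found in 13 members at a median of 519 CPM, against 83.5 CPM in all 38 other neurons. Gfpt1, the first enzyme of hexosamine synthesis, was found in 8 members at a median of 571 CPM, with no value between 2.11 and 119.6 CPM. In 35 other neurons it had a median of 72.3 CPM. The kinesin Kif5c, which hauls axonal cargo, was found in 20 members at 541 CPM and in 38 other neurons at 735 CPM. Cnot6, Mageh1, Trib1, Serf2, Gpm6b, Selenop, Naa50, Dync1i1, Ptprz1, Metap1 and Prkcb made up the remainder of the 15, in 7 to 20 members at medians from 478 to 1156 CPM.

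The 5 subtype genes kept different shares of members. Ntrk2 (chromosome 13, 58806569 to 59133970, plus strand, GRCm38) was found in 24 of 34 members (70.6%, 52.5% to 84.9%), with 35 of 38 other neurons (92.1%). Tac1 (chromosome 6, 7554879 to 7565834, plus strand) was found in 19 members (55.9%, 37.9% to 72.8%) and 24 other neurons (63.2%). Piezo2 was found in 14 members (41.2%, 24.6% to 59.3%) and 20 other neurons (52.6%). P2rx2 (chromosome 5, 110339812 to 110343212, minus strand) was found in 13 members (38.2%, 22.2% to 56.4%) and 26 other neurons (68.4%). Trpv1 (chromosome 11, 73234292 to 73261242, plus strand) was found in 5 members (14.7%, 4.95% to 31.1%) and 14 other neurons (36.8%). Each share was lower in the members, and the rule chose the members by how few genes they held, so no test was made. Without the 3 libraries the counts were 22, 17, 13, 13 and 5 of 31 members, in the same order.

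Trpv1 was strong in 1 member only. AM076 had 669 CPM, AM083 52.7 CPM, AM216 34.1 CPM, AM086 18.6 CPM and AM289 15.5 CPM. The highest value under the threshold was 4.99 CPM, in AM010, and 14 members had no count at all. In the 14 other neurons with the gene the median was 81.8 CPM.

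P2rx2 fell into a high and a lower range among its 13 members. AM248, AM080, AM083, AM002 and AM288 had 617, 603, 589, 517 and 513 CPM. AM297 had 155 CPM, AM230 97.4 CPM, AM023 85.8 CPM and AM299 56.9 CPM. AM216, AM072, AM076 and AM010 had 49.98, 49.7, 40.99 and 36.5 CPM. No member lay between 155 and 513 CPM, and the highest value under the threshold was 8.88 CPM, in AM258. Of the 5 high members, AM002, AM288 and AM083 were among the 10 with the fewest genes.

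Tac1 spanned the widest range of levels of the 5 genes. AM251, AM010, AM282, AM086, AM080 and AM295 had 3589, 3408, 2852, 2273, 1603 and 1285 CPM. AM075, AM230, AM223, AM072, AM023, AM076 and AM083 had 980.1, 607, 583, 435, 346, 247 and 107 CPM. AM004, AM005, AM298, AM287, AM078 and AM302 had 60.03, 54.6, 34.8, 33.7, 17.3 and 12.3 CPM. AM289 and AM278 lay just under the threshold, at 8.87 and 8.72 CPM, and no member lacked a count. The median of the 19 members with Tac1 was 435 CPM, and that of the 24 other neurons with it was 395 CPM.

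Ntrk2 was at 50 CPM or more in 18 of its 24 members. The highest values were 2059 CPM in AM004, 1715 CPM in AM078, 1108 CPM in AM023 and 816 CPM in AM083. AM223, AM075, AM275, AM244, AM086, AM076 and AM230 had 567, 487, 333, 283, 260.3, 243 and 162 CPM. AM080, AM005, AM288, AM225, AM216, AM010 and AM299 had 99.0, 92.0, 83.2, 69.7, 57.8, 57.6 and 53.2 CPM. AM251, AM248, AM072, AM258, AM298 and AM282 had 36.9, 26.9, 21.4, 21.03, 15.1 and 13.3 CPM. The highest value under the threshold was 5.65 CPM, in AM297. The median where found was 95.5 CPM in the members and 256 CPM in the other neurons. Beside the 283 CPM of AM244 stand its 35386 CPM of satellite glia genes, and their part in it was not tested.

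Piezo2 was highest in AM005, at 824 CPM, in AM223 at 496.5 CPM, in AM002 at 468 CPM and in AM075 at 453 CPM. AM282, AM304, AM086, AM078 and AM080 had 365, 274, 265, 184 and 159 CPM. AM302, AM076, AM216, AM252 and AM298 had 56.7, 45.5, 45.3, 36.2 and 17.2 CPM. No member lay between 56.7 and 159 CPM. The highest value under the threshold was 6.39 CPM, in AM287. The medians where found were 224 CPM in the 14 members and 247 CPM in 20 other neurons.

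The 5 genes occurred in 17 distinct combinations, and 9 of them were held by a single member. The most frequent was Tac1, Ntrk2 and Piezo2, in 6 members: AM005, AM075, AM078, AM223, AM282 and AM298. Without AM298, whose levels of these genes were 3.10% to 3.81% of those in AM075, 5 members had it. Ntrk2 by itself was found in AM225, AM244, AM258 and AM275. P2rx2, Tac1 and Ntrk2 occurred together in AM010, AM023, AM072 and AM230, and P2rx2 with Ntrk2 in AM248, AM288 and AM299. Combinations of 2 members each were Piezo2 by itself (AM252 and AM304), Tac1 by itself (AM287 and AM295) and Tac1 with Ntrk2 (AM004 and AM251). The 17 combinations remained 17 without the 3 libraries.

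The 5 members with Trpv1 held 5 different combinations: all 5 genes in AM076, the 4 without Piezo2 in AM083, the 4 without P2rx2 in AM086, the 4 without Tac1 in AM216, and no other of the 5 in AM289. The remaining single combinations were P2rx2 with Piezo2 in AM002, P2rx2, Tac1, Ntrk2 and Piezo2 in AM080, Tac1 with Piezo2 in AM302, and P2rx2 by itself in AM297. AM278 and AM286 had none of the 5 genes at 10 CPM. AM278 had 8.72 CPM of Tac1 and AM286 had 5.62 CPM of Ntrk2, both under the threshold. The map of subtype and ganglion genes places each member by its number of genes.

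**Figure D4:**
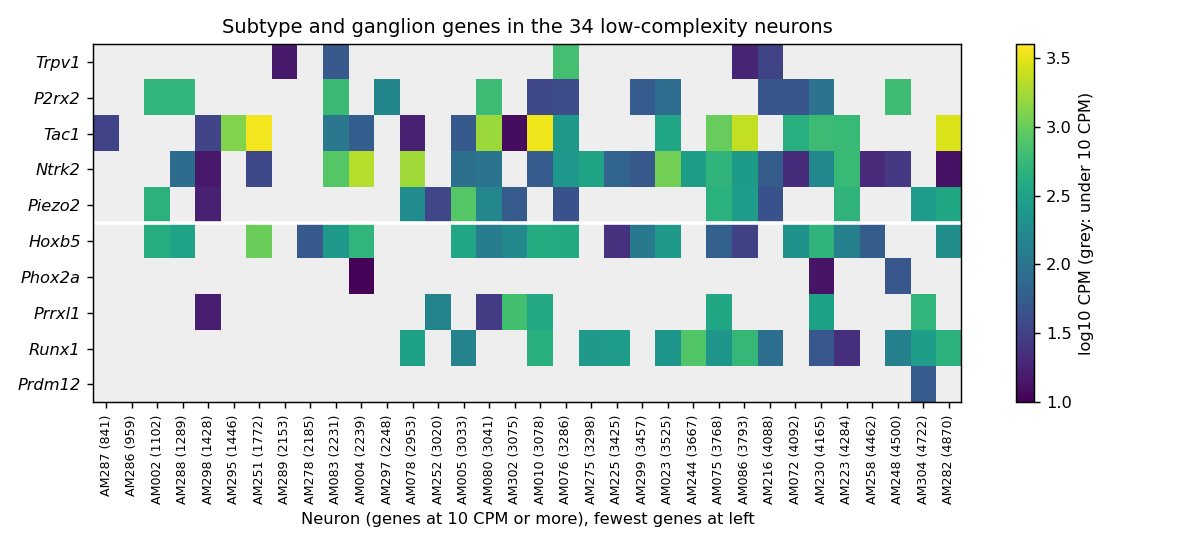
Level of the 5 subtype genes (upper rows) and of 5 ganglion genes (lower rows) in each of the 34 low-complexity neurons, 1 column per neuron with its number of genes at 10 CPM in brackets, fewest at left; colour is log10 CPM and grey marks values under 10 CPM. Members with 1102 and 1289 genes (AM002 and AM288) keep P2rx2 above 500 CPM, while the member with 4722 genes (AM304) has only Piezo2 of the 5.

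The number of the 5 genes in a member was only loosely tied to its number of genes. None of the 5 was found in 2 members, 1 in 10, 2 in 7, 3 in 10, 4 in 4 and all 5 in 1. Genes at 10 CPM had medians of 1572, 3159, 2239, 3646.5 and 3417 for 0, 1, 2, 3 and 4 of the 5, and numbered 3286 in the member with all 5. Spearman's rho between both numbers was 0.30 over the 34 members, which share the threshold and the amplification. With total counts it was -0.05. Of the 15 members with 3 or more of the 5 genes, 7 came from the second block of neuron numbers, which had only 7 members. All 7 of these carried Tac1 and Ntrk2, 5 carried Piezo2, 4 P2rx2 and 3 Trpv1. In the first block Tac1 and Ntrk2 were each found in 4 of 5 members, and in the third Tac1 was found in 8 and Ntrk2 in 13 of 22.

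Pairs of the 5 genes were counted among the members. Tac1 was found in 16 of 24 members with Ntrk2 (66.7%), against 3 of 10 without it (30%). Without the 3 libraries it was found in 15 of 22, against 2 of 9. P2rx2 was found in 11 of 24 members with Ntrk2 (45.8%), against 2 of 10 without it (20%). In the other neurons all 26 with P2rx2 and all 24 with Tac1 also had Ntrk2. AM002 and AM297 carried P2rx2 without Ntrk2, and AM287, AM295 and AM302 carried Tac1 without it. AM002 had 0.0812 CPM of Ntrk2, which is 1 count, against 517 CPM of P2rx2.

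Piezo2 went more often with Tac1 than with P2rx2. Piezo2 was found in 10 of 19 members with Tac1 (52.6%), against 4 of 15 without it (26.7%). Without the 3 libraries it was found in 9 of 17, against 4 of 14. In the second block of neuron numbers all 7 members had Tac1 and 5 had Piezo2, and the part of the block was not tested. In the other neurons Piezo2 was found in 16 of 24 with Tac1, against 4 of 14 without it. P2rx2 was found in 4 of 14 members with Piezo2 (28.6%), against 9 of 20 without it (45%). The other neurons had P2rx2 in 9 of 20 with Piezo2, against 17 of 18 without it. P2rx2 and Tac1 were close to unrelated in the members, with Tac1 in 7 of 13 members with P2rx2 and in 12 of 21 without it. None of these pair counts was tested, since neurons of unknown animals are not replicates.

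Markers of the ganglia were kept in most members. Hoxb5, a homeobox gene listed here as a nodose marker, was found in 21 members (61.8%, 43.6% to 77.8%) and 32 of 38 other neurons. Its level where found ran from 23.5 to 1048 CPM in the members, where the median was 214 CPM, and the median was 219 CPM in the other neurons. Phox2a, a homeobox factor of visceral sensory neurons, was found in 3 members at 51.1 CPM (AM248), 13.6 CPM (AM230) and 10.7 CPM (AM004), and in 2 other neurons. Of the 4 nodose markers (Phox2a, P2rx2, Ntrk2 and Hoxb5), 28 of 34 members had at least 1, 21 at least 2 and 11 at least 3. Without the 3 libraries these were 26, 21 and 11 of 31.

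Genes known from the jugular ganglion were Tac1, given above, Runx1, Prrxl1 and Prdm12. All members with Runx1 except AM304 also had a nodose marker, and all 24 other neurons with Tac1 had Ntrk2. A nodose marker was found in 28 of all 34 members, however, and Ntrk2 in 35 of all 38 other neurons. Overlaps with markers this common cannot tell whether Tac1 or Runx1 marks the jugular ganglion here. Neither gene by itself was used to place a neuron. Runx1, a factor of C-fibre development, was found in 15 members at a median of 249 CPM, and in 35 other neurons at 66.9 CPM. Prrxl1, a homeobox gene of somatic sensory neurons, was found in 8 members at a median of 326 CPM, and in 21 other neurons at 86.6 CPM. Prdm12, a factor of neural crest pain neurons, was found in 1 member, AM304, at 57.8 CPM, and in 6 other neurons. AM304 also had 517 CPM of Prrxl1, 278 CPM of Runx1, 3888 CPM of Calca (calcitonin gene-related peptide) and 124 CPM of the acid-sensing channel gene Asic3. It had none of the 4 nodose markers at 10 CPM.

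Markers of both ganglia met in the same members, but nodose markers were common in all members. Of the members with Prdm12, Prrxl1 or Runx1, only AM252 and AM304 had no nodose marker at 10 CPM. Over all 34 members, 28 had a nodose marker, and the overlap is read against that share. In AM078, AM244, AM275 and AM298 the only nodose marker was Ntrk2, which was found in 35 of 38 other neurons. Prrxl1 was found with Hoxb5 in 5 of its 8 members, a share like that of Hoxb5 in all members (61.8%). AM010 carried P2rx2, Ntrk2 and Hoxb5 together with Prrxl1 and Runx1, and so did AM230, which added Phox2a. AM286, AM287, AM289 and AM295 had none of the nodose markers and none of Prdm12, Prrxl1 and Runx1 at 10 CPM. Of these 4, AM287 and AM295 had Tac1. Hoxb5, Prdm12, Phox2a and Runx1 overlap exons of genes on the other strand (Hoxb5os, Gm13425, Inppl1 and Gm26626), and the strand setting of the counting is not given, so reads of these pairs cannot be told apart. The same holds for Bdnf, P2ry1 and Kcnk2, with Gm45346, Gm37035 and A430027H14Rik. The 5 subtype genes overlap no other exon in the annotation used.

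Some subtype genes were at least as frequent in the members as in the other neurons. Htr3a, a serotonin-gated channel subunit of nodose neurons, was found in 19 of 34 members (55.9%, 37.9% to 72.8%) and 15 of 38 other neurons (39.5%, 24.04% to 56.6%). Its level where found was lower in the members, with a median of 74.2 CPM, against 1119 CPM. AM076, AM010, AM248 and AM288 had 1419, 891, 785 and 720.4 CPM, while 7 of the 19 members lay between 10 and 50 CPM. Calca was found in 13 members and 12 other neurons, at medians of 391 and 1261 CPM. Nts, which encodes neurotensin, was found in 9 members and 8 other neurons, at medians of 159 and 1957 CPM. AM223, AM258, AM282 and AM230 had 6214, 2593, 1776 and 1550.5 CPM of Nts, and 8 of the 9 members with it came from the third block of neuron numbers.

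Other genes were found in most other neurons but in few members. Genes at a median of 30 to 100 CPM in the other neurons were found in a median of 29.4% of members, against 92.1%. At 100 to 300 CPM these shares were 55.9% and 100%. Medians over the 38 other neurons were 38.9 CPM for Trpv2, 27.4 for Tmem63b, 75.4 for Ptger4, 72.1 for Ebf3 and 190.4 for Cnr1. Trpv2, a TRP channel of larger neurons, was found in 2 members (5.88%, 0.720% to 19.7%) and 36 of 38 other neurons. Cnr1, the cannabinoid receptor, was found in 6 members and 38 other neurons, at medians where found of 177 and 190.4 CPM. Tmem63b, a channel of the OSCA/TMEM63 family, was found in 7 members and 33 other neurons. Ptger4, a prostaglandin E2 receptor, and Ebf3, a lineage factor, were picked after their values were seen. Ptger4 was found in 4 members at a median of 418 CPM and in 32 other neurons at 83.7 CPM. Ebf3 was found in 7 members at 181 CPM and in 37 other neurons at 73.6 CPM. The plot of shares sets these genes beside the 5.

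Of 347 genes in 32 lists, 257 were found in at least 1 member and 73 in 50% or more. Of 13 neuropeptide genes 12 were found in at least 1 member, and their median share was 26.5% in the members, against 21.1% in the other neurons. Bdnf, the neurotrophin bound by the Ntrk2 product, was found in 20 members, with 37 other neurons. Adcyap1, the gene of the peptide PACAP, was found in 16 and 27 neurons and Cartpt, of the CART peptide, in 14 and 21, members first.

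Over all genes found in at least 1 member the median share was 14.7% in the members and 63.2% in the other neurons. The gene lists are read against these. Sodium channel genes had a median share of 29.4% in the members and 86.8% in the other neurons. Scn7a, an atypical sodium channel, was found in 26 members, Scn9a, the Nav1.7 channel of nociceptors, in 19, and Scn10a, the Nav1.8 channel, in 11, against 38, 38 and 33 other neurons. Potassium and HCN channel genes had median shares of 14.7% and 78.9% in members and other neurons, and calcium channel genes 11.8% and 65.8%. Kcnb2, a delayed rectifier, led its list with 20 members, and Cacnb3, a calcium channel beta subunit, with 17. For TRP channels the shares were 4.41% and 18.4%, with Trpa1, the irritant receptor, in 4 members at 995, 429, 112 and 43.5 CPM (AM295, AM076, AM083 and AM288).

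Receptor genes differed in how many members held them. Ret, the receptor of the GDNF family, was found in 24 members and 38 other neurons, at medians of 372 and 393 CPM. P2ry1, a nucleotide receptor, was found in 16 members at a median of 307 CPM and in 27 other neurons at 295 CPM. Cckar, the cholecystokinin receptor, was found in 12 members at 333 CPM and in 18 other neurons at 82.4 CPM. Its highest levels were 2005 CPM in AM302, 1847 CPM in AM005, 1326 CPM in AM248 and 1132 CPM in AM010. Gabbr1, the GABA-B receptor subunit, led the inhibitory receptors with 20 members, Lifr, the receptor of leukaemia inhibitory factor, the cytokine receptors with 19, and Adora1, the adenosine A1 receptor, the inflammatory mediator receptors with 17.

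Lineage factors were kept in part. Ebf1 was found in 23 members, Etv1 in 21 and Isl1 in 19, against 38, 32 and 37 other neurons. Slc17a6, the vesicular glutamate transporter of these afferents, was found in 23 members and 38 other neurons. Of the neurofilament genes Nefl was found in 33, Nefh in 31, Nefm in 30 and Ina in 2 members, and Prph, the peripherin gene, in 34. Nefh, a gene of large myelinated neurons, ranged from 1.14 CPM in AM002 to 6679.5 CPM in AM302.

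Of 12 injury genes 6 were found in 50% or more of the members, with a median share of 50% (89.5% in the other neurons). Over all genes found in at least 1 member, 14.3% were found in 50% or more of members, and the median shares were 14.7% and 63.2%. The part of gene level in the shares of these lists was not tested. Gap43, a growth cone protein, was found in 33 members, Atf3, a factor induced by axon injury, in 29 and Jun in 25, each in all 38 other neurons. Sprr1a, also induced by axon injury, was found in 9 members and 8 other neurons. Of 10 immediate early genes 2 were found in 50% or more of the members, with a median share of 26.5% (67.1% in the other neurons): Egr1 in 31 members and Fos in 27. Egr1 and Fos had medians where found of 488 and 891 CPM in the members, and 500 and 580 CPM in the other neurons. The other 8 genes were found in 2 (Npas4) to 16 (Dusp1) members.

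Among the 7 members with the fewest genes, AM002, AM288, AM295 and AM251 held subtype genes at high level, and AM286 held few genes of the identity lists. AM002, with 1102 genes, had 517 CPM of P2rx2, 468 CPM of Piezo2, 419.5 CPM of Hoxb5 and 2890.0 CPM of Scn7a. Beside these values AM002 had 10539 CPM of satellite glia genes, 4030.4 CPM of Schwann cell genes, 562 CPM of leukocyte genes, the highest of the members, and 897 CPM of P2ry12, which marks microglia and some macrophages. Their part was not tested. AM288, with 1289 genes, had 513 CPM of P2rx2, 83.2 CPM of Ntrk2, 314 CPM of Hoxb5, 720.4 CPM of Htr3a and 752 CPM of Gfra2, a receptor of neurturin. Its satellite glia sum was 9.01 CPM, the lowest of the members, and its Schwann cell sum 1.96 CPM.

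AM295, with 1446 genes, had 7111 CPM of Calca, 1285 CPM of Tac1, 995 CPM of Trpa1 and 709 CPM of Calcb, and none of the ganglion markers Hoxb5, Runx1 and Prrxl1 at 10 CPM. Its Trpv1 was under the threshold too. AM251, with 1772 genes, had 3589 CPM of Tac1, 1048 CPM of Hoxb5, 861 CPM of Bdnf and 36.9 CPM of Ntrk2. AM286, with 959 genes, kept little: of 240 genes in the identity lists it had 4 at 10 CPM (Cacna1a, Kcnb2, Bdnf and Ret), the highest at 89.2 CPM. Its pan-neuronal sum was 12087 CPM, with 9 of 12 genes found. Over the 34 members 4 to 73 of these 240 genes were found (median 40), and Spearman's rho with the number of genes was 0.79.

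Each subtype gene was then used to part the members, and other genes were compared by the share of members at 10 CPM. A gene was named when its share differed by 50 percentage points or more. This is a rule of size and not a test. The smaller side held 5 members for Trpv1, 10 for Ntrk2, 13 for P2rx2, 14 for Piezo2 and 15 for Tac1. Shares over few members scatter more, so the numbers of genes past the rule cannot be compared between splits. Between the 5 members with Trpv1 and the 29 without, 102 of 13138 genes (0.776%) had the higher share with Trpv1 and 14 (0.107%) the lower. Med1, a subunit of the Mediator complex, was found in 5 of 5 members with Trpv1, against 3 of 29 without. Zbtb38 and Dmac1 were found in 5 of 5, against 7 and 8 of 29, and Kcns3, a potassium channel subunit, in 4 of 5, against 3 of 29. Of 346 list genes 3 passed (0.867%): Kcnc4 and Kcnk2, both potassium channels, and Htr3a, in 5 of 5 members with Trpv1, against 14 of 29. In the other direction Snrpe, a splicing protein, was found in 0 of 5, against 22 of 29, and Gm8797, Vps26b, Retreg2, Rap2a and Ntpcr in 0 of 5, against 16 to 18 of 29. Of the 5 members with Trpv1, 3 came from the second block of neuron numbers. That block held 7 of the 34 members and had Htr3a in 6 of them. The part of the block in this split was not tested.

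Few genes passed the rule for P2rx2 and Tac1, with 13 or more members on each side. With P2rx2, 12 genes (0.0913%) had the higher share and 1 (0.00761%) the lower, and no list gene passed. Hspa9, a mitochondrial chaperone, was found in 13 of 13 members with P2rx2, against 8 of 21 without, and Timm13, a mitochondrial import protein, in 13 of 13, against 9 of 21. Tmem14c was found in 11 of 13, against 5 of 21, and Kctd20 and Ppp1r9b in 9 of 13, against 3 of 21. Gm765 was found in 0 of 13, against 13 of 21. In the other neurons Hspa9, Timm13 and Tmem14c were found in all 26 with P2rx2 and all 12 without it.

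With Tac1, 8 genes (0.0609%) had the higher share and 1, Gm9294, the lower (0.00761%). Mllt3 was found in 14 of 19 members with Tac1, against 1 of 15 without, and 2510009E07Rik in 14 of 19, against 2 of 15. Dcdc2a, which codes for doublecortin domains, was found in 15 of 19, against 3 of 15, and Synpr, a synaptic vesicle protein, in 17 of 19, against 5 of 15. Tmem233 was found in 13 of 19, against 2 of 15, and Nrn1, a neurite growth protein, in 18 of 19, against 6 of 15. Cckar was the list gene that passed, in 11 of 19 members with Tac1, against 1 of 15. Both genes also differed between the blocks of neuron numbers. Cckar was found in 3 of 5, 6 of 7 and 3 of 22 members of blocks 1, 2 and 3. Tac1 was found in 4, 7 and 8 members of these blocks, and the part of the block was not tested. In the other neurons Cckar was found in 14 of 24 with Tac1, against 4 of 14. These counts moved with the libraries: without AM244, AM287 and AM298, 24 genes passed for Tac1 in either direction and 8 for P2rx2, against 9 and 13 in all members. At 50 CPM 14 genes passed for Tac1, and with TMM factors 8 passed for P2rx2.

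With Ntrk2, 98 genes (0.746%) had the higher share and 1, Gm8355, the lower (0.00761%). The members with Ntrk2 had a median of 3441 genes at 10 CPM, against 2169 in those without, and the part of that gap in the 98 was not tested. Over both directions 99 genes passed, against 45 with TMM factors (edgeR's scaling of library sizes) and 15 at a threshold of 50 CPM. Tceal8 and Synpr were each found in 21 of 24 members with Ntrk2, against 1 of 10 without. Pik3ca, a catalytic subunit of PI3 kinase, and G3bp1, a stress granule protein, were found in 17 of 24, against 0 of 10. Nsg2 and Hsp90b1, a chaperone of the endoplasmic reticulum, were found in 19 of 24, against 1 of 10. Of 346 list genes 5 passed (1.45%): P2ry1 in 16 of 24, against 0 of 10, Etv1 in 19, against 2, Ngfr, the p75 neurotrophin receptor, in 17, against 2, Dusp1 in 15, against 1, and B2m in 22, against 4. P2ry1 was found in 25 of 35 other neurons with Ntrk2, against 2 of 3 without.

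With Piezo2, 31 genes (0.236%) had the higher share and 1, Eapp, the lower (0.00761%). Adam22, a receptor of synaptic LGI proteins, was found in 12 of 14 members with Piezo2, against 3 of 20 without. Kcnc4, a Kv3 potassium channel, was found in 11 of 14, against 3 of 20, and Scn1a, the Nav1.1 channel, in 7 of 14, against 0 of 20. Kpna1 was found in 11 of 14, against 3 of 20, Fnbp1 in 13, against 6, Ublcp1 in 10, against 2, and Brsk2, a kinase of axon polarity, in 9, against 1. In the other neurons Scn1a was found in 13 of 20 with Piezo2, against 6 of 18. Members with Piezo2 had a median satellite glia sum of 1245 CPM, against 2505 CPM in those without. Without AM244, AM287 and AM298, 52 genes passed in either direction, against 32.

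Markers of other cells were measured in every member. The satellite glia sum ran from 9.01 to 56618 CPM in the members, where the median was 1673 CPM, and its median was 615 CPM in the other neurons. Apoe was found in 28 members and 27 other neurons and Fabp7 in 27 and 25. The Schwann cell sum had a median of 694 CPM in the members, led by AM005 at 12524 CPM, and 715 CPM in the other neurons. The fibroblast sum had medians of 70.5 and 36.5 CPM. The endothelial, leukocyte and epithelial sums had medians of 0.303, 0 and 0 CPM in the members, with maxima of 201, 562 and 44.8 CPM. The erythrocyte sum had a median of 0.222 CPM and a maximum of 147 CPM. Of 6 endothelial genes, Flt1 was found in 4 members (up to 189 CPM) and Cldn5 in 2 (up to 189 CPM). Of 7 leukocyte genes, C1qa and Ptprc were each found in 2 members (up to 298 and 216 CPM). Lyz2 was found in 1 member (214 CPM) and Aif1 in 1 (28.2 CPM). Pecam1 and Cdh5 of the endothelial list and Csf1r and Cd3e of the leukocyte list were found in no member. The part of these other cells in the results above was not tested.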

How the data were processed

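Single traced neurons of mouse vagal ganglia were profiled by RNA sequencing with 76-base reads, per the labels' protocols. The authors deposited raw read counts for 50686 Ensembl genes in 84 neurons, assigned with featureCounts per the submitters' processing notes, version not given. Aligner, genome build, annotation and strand setting: not given in the sources used here. The labels mention no molecular identifiers, and copies made in amplification count repeatedly. From the counts, CPM were computed with each neuron's total. IDs were matched to GENCODE M21 (GRCm38), 50376 of 50686. The 310 unmatched IDs held at most 0.253% of any member's counts.

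The members and gene lists were chosen with earlier results of these data known. A gene was found at 10 CPM or more. Shares have exact Clopper-Pearson 95% intervals. Likeness used log2(CPM + 1). Genes outside the 5 and the ganglion markers were named by rank: highest medians, highest shares within lists, largest share differences. Some genes this rule names are not reported here. Tools were Python 3.11.15, pandas 2.3.3, scipy 1.17.1 and, for TMM factors, edgeR 4.0.16. Alternatives covered thresholds, scaling, thinning, gene limits and left-out libraries. With 1 group and no named animals, no p-value was computed.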

Additional observations from a re-analysis of the deposited data

How the results depend on the processing

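Of 155 recomputed values, 116 stayed within the spread set for them and 39 moved. At 1 count or more, Trpv1 was found in 58.8% of members, P2rx2 in 88.2%, Piezo2 in 97.1%, and Tac1 and Ntrk2 in 100%. There were then 5 combinations, 34 members with 3 or more of the 5 genes, 1057 genes in every member and 177 list genes in 50% or more. At 50 CPM, 9 members had 3 or more of the 5 genes, 20 genes were found in every member, and the splits by Tac1 and Ntrk2 gave 14 and 15 genes. Without block 3, P2rx2 was found in 58.3% of members, and Tac1 and Ntrk2 each in 91.7%, with 8 combinations; without block 2, 8 members had 3 or more of the 5 genes. With TMM factors (0.0640 to 2.22), 97 genes were found in every member, and the P2rx2 and Ntrk2 splits gave 8 and 45 genes; with median of ratios size factors (0.0505 to 3.41), 139 genes were found in every member. Size rules of 40 and 60 points gave 364 and 35 genes for Trpv1, 55 and 4 for P2rx2, 91 and 2 for Tac1, 387 and 22 for Ntrk2, and 153 and 5 for Piezo2, against 116, 13, 9, 99 and 32 at 50 points. Without AM287 and AM298, chosen after seeing the data, 84 genes were found in every member, and the Tac1 and Piezo2 splits gave 15 and 51. Without AM244 as well, the count was 94, and the P2rx2, Tac1 and Piezo2 splits gave 8, 24 and 52. The causes were not tested.

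The Trpv1 split at 50 CPM and the other 4 splits at 1 count were not run, since fewer than 5 members stood on 1 side. No paired analysis was possible because the labels define 1 group and no result comes from a test. In 14 of 1034 pairs of a member and a source neuron, 80% or more of the source's restricted genes were counted in the member, at 0.0150% to 0.290% of the source level. In these pairs 0% to 16% of those genes lay at 10 CPM or more in the member, so values under 10 CPM, and some just above it, cannot be told apart from such traces.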

Other observations

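Pearson's r of log2(CPM + 1) over genes ran from 0.340 to 0.758 in the 561 pairs of members, with a median of 0.550. The 34 pairs with the same combination of the 5 genes had a median of 0.572, and the pairs with different ones 0.549. The highest value was that of AM298 with AM075, which shared 85.4% of the 1428 genes of AM298 and 32.4% of those of AM075. The next were AM216 with AM258 (0.715) and AM223 with AM304 (0.707), pairs of different combinations. Genes are not independent replicates, and these values are descriptions.

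Outside the members, 2 neurons under 5000000 counts were closest to AM075: AM301 with r of 0.935 and AM290 with 0.886. AM301 had 841 CPM of Tac1, 108 CPM of Ntrk2 and 184 CPM of Piezo2, and AM290 had 1944, 444 and 62.3 CPM. Of 35 genes at 1000 CPM or more in 1 member and under 10 CPM in every other, Gxylt1 was the highest, at 6224 CPM in AM002 against at most 2.94 CPM elsewhere in the set. Gm45609 stood at 5258 CPM in AM286, Gm44822 at 2313 CPM in AM083, 9330162012Rik at 2179.8 CPM in AM278 and Stum at 2163 CPM in AM080. The 35 genes lay in 18 of the 34 members.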
